A study of Mus musculus with 9 samples.

Results

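Chemokine ligands are small secreted proteins that draw leukocytes along a concentration gradient. The 10 ligand genes described here, Ccl2, Ccl3, Ccl4, Ccl5, Ccl6, Ccl9, Cxcl2, Cxcl9, Cxcl10 and Cxcl16, were taken by gene symbol from the 55536 genes of an expression table of mouse acute myeloid leukemia (AML). The leukemia was made by infecting c-kit+ cells of C57BL/6J mice with a retrovirus that carries the fusion gene MLL-AF9 and green fluorescent protein (GFP). GFP+ leukemia cells were passed to C57BL/6J recipients 6 to 8 weeks old that had not been irradiated, and bone marrow was taken on day 18 and sorted by c-kit, a receptor encoded by Kit. The table holds 9 libraries in 3 groups of 3, labelled WT c-kit-, WT c-kit+ and IRF7-/- c-kit+ after the donor and the sort. The WT groups have the genotype label of a GFP control, and in the third group the cells came from IRF7-/- donors, in which a PGK-beta-geo cassette stands in place of exons 2 and 3. The comparisons ask how the ligands differed between c-kit+ and c-kit- cells of WT leukemia, and how they differed when the donor was labelled IRF7-/-.

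The CC ligands carry their first cysteines side by side, and the CXC ligands have a residue between them. Each family signals through G-protein coupled receptors on the cell that is drawn in. Ccl2 acts on Ccr2, the receptor that brings monocytes out of bone marrow. Ccl3 and Ccl5 act on Ccr1, and Ccl4 is a close relative of Ccl3. Ccl6 and Ccl9 are rodent CC ligands made by myeloid cells that act on Ccr1. Cxcl2 draws neutrophils through Cxcr2, Cxcl9 and Cxcl10 are interferon-induced ligands of Cxcr3, and Cxcl16 is made as a membrane-bound protein that binds Cxcr6 and can be shed. Interferon regulatory factors (IRFs), among them IRF7, take part in the induction of several of these genes, and NF-kappaB does so in inflammation.

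The label of the knockout was checked first. Irf7 was 12.8, 5.97 and 7.95 TPM in the libraries labelled IRF7-/- c-kit+ and 5.31, 3.91 and 3.36 TPM in WT c-kit+, so its level in the labelled libraries was higher and went against the label. Its log2 fold change of 0.89 was under the threshold of 1 used below. The paper reports that it verified IRF7 expression in its leukemia models by qRT-PCR and Western blot. TPM is a level scaled by gene length and by the total of the library. The TPM value of Irf7 covers the whole gene and does not show the replaced exons alone. These libraries are therefore called the libraries labelled IRF7-/- c-kit+ throughout, and every direction drawn from them rests on that label. Kit followed the sort, at 0.52 to 3.03 TPM in WT c-kit- and 50.7 to 85.7 TPM in the other 6 libraries. TPM values give no read number, so the depth of the libraries is unknown. Genes listed as markers of mature neutrophils (7 genes) summed to 6089 and 7656 TPM in WT c-kit- libraries 1 and 2, to 30284 TPM in its library 3, to between 56707 and 110784 TPM in WT c-kit+, and to between 1595 and 2519 TPM in the labelled libraries. Most of each sum was S100a8 and S100a9. By the thresholds given below, 4 of the 7 were higher in WT c-kit+ than in WT c-kit-, and 1, Mmp8, was lower (2.63 to 7.40 against 54.8 to 85.1 TPM). The sum was highest in WT c-kit+, and the paper describes its leukemia cells as positive for the myeloid surface markers CD11b and Gr-1. The name of the list therefore does not identify the cells that held this RNA. The myeloid genes Mpo and Elane were at 389 to 455 and 752 to 1056 TPM in WT c-kit-. They were at 3252 to 5947 and 5105 to 8771 TPM in the c-kit+ groups, and were called higher in each of these groups than in WT c-kit-. Of 8 T and NK cell markers, 6 (Cd3e, Cd3g, Trac, Ncr1, Klrb1c and Gzma) stayed below 1 TPM in all 9 libraries, and Nkg7 was at 89.7 to 192 TPM in the c-kit+ groups. In bulk libraries, fewer cells of a type and less RNA per cell cannot be told apart.

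Promoter sequence was at hand for 6 of the 10 genes (RefSeq, build GRCm38.p6), as 300 bases that run from 250 before the start of the gene to 50 after it. Those of Cxcl10, Cxcl2, Ccl3, Ccl9 and Ccl6 are printed 5′ to 3′ on the strand of the gene, because these genes moved in different directions. The windows are chr5:92348840-92349139 (minus strand) for Cxcl10, chr5:90903649-90903948 (plus strand) for Cxcl2, and on the minus strand chr11:83649329-83649628 for Ccl3, chr11:83578587-83578886 for Ccl9 and chr11:83593038-83593337 for Ccl6. Capitals mark matches on either strand to an IRF element (GAAANNGAA), a STAT element (TTCNNNGAA), an NF-kappaB element (GGANNTTCC) or the core promoter box TATAAA, called the TATA motif here.
Cxcl10: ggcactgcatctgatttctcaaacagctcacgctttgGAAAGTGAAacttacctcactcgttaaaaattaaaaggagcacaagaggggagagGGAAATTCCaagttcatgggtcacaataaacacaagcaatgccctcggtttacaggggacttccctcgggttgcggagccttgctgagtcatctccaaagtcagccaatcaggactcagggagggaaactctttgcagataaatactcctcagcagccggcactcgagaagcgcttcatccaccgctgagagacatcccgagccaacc
Cxcl2: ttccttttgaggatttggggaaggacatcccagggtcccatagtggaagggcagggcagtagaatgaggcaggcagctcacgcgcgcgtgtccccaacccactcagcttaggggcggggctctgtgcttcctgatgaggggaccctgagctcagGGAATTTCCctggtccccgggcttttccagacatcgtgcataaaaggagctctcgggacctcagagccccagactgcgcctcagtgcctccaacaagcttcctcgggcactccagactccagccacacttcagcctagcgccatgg
Ccl3: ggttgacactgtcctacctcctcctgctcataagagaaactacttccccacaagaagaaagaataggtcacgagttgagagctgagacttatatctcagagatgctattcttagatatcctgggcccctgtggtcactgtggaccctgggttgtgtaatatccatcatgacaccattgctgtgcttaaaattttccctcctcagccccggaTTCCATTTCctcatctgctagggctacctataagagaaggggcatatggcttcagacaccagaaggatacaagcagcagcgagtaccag
Ccl9: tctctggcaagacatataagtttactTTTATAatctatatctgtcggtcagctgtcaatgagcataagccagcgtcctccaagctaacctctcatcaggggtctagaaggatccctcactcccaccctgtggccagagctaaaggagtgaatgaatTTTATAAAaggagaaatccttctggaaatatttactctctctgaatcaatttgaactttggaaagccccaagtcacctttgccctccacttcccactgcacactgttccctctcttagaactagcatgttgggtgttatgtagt
Ccl6: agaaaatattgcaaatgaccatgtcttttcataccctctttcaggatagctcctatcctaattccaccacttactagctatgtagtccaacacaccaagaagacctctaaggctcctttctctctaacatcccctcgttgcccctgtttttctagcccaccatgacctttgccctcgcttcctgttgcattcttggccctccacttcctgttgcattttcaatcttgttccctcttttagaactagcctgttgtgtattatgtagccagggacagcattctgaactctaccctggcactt
The Cxcl10 window held an IRF match whose first base lies 213 bases before the start, and an NF-kappaB match 158 bases before it. Cxcl2 had an NF-kappaB match 96 bases before the start. Ccl3 had an IRF match on the other strand, 39 bases before the start. Ccl9 had TATA matches only, of which 2 overlap on opposite strands at 94 and 92 bases before the start, and its neighbour Ccl6 had no match to any of the 4 motifs. The window of Cxcl9, not printed, held an IRF match 175 bases and a TATA match 195 bases before the start. Of all 32851 RefSeq windows, 8.56% held the IRF motif, 8.3% the STAT motif, 4.26% the NF-kappaB motif and 13.6% the TATA motif. The STAT motif reads the same on both strands and had no match in the 6 windows, the NF-kappaB matches of Cxcl10 and Cxcl2 were found on both strands, and no match overlapped one to another motif. A match describes letters in this window and not the binding of a factor.

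**Figure D1:**
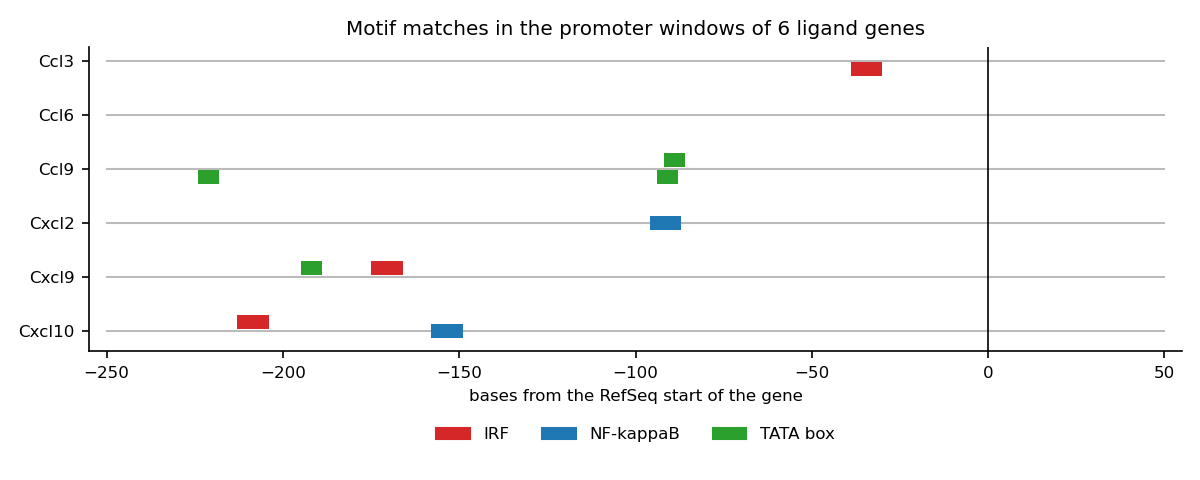
Positions of the motif matches in the promoter windows of 6 ligand genes, in bases from the RefSeq start (vertical line). Blocks above a line lie on the strand of the gene, blocks below on the other strand, and blocks on the line match both. Ccl6 has no match, and Cxcl10 has an IRF and an NF-kappaB match.

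Most of the ligand genes sit in clusters. By the GENCODE M21 annotation (GRCm38), chromosome 11 holds Ccl2 (chr11:82035571-82037453), Ccl5 (chr11:83525778-83530518), Ccl9 (chr11:83572919-83578636), Ccl6 (chr11:83587882-83593087), Ccl3 (chr11:83647844-83649355), Ccl4 (chr11:83662584-83664683) and Cxcl16 (chr11:70453983-70459984). Chromosome 5 holds Cxcl2 (chr5:90903871-90905938), Cxcl9 (chr5:92321347-92328079) and Cxcl10 (chr5:92346638-92348889). Ccl9 and Ccl6 lie 9.25 kb apart on the same strand, Ccl3 and Ccl4 lie 13.2 kb apart on opposite strands, and Cxcl9 and Cxcl10 lie 18.6 kb apart. No annotated gene lies wholly between the members of each pair. Genes that overlap a member and reach into the gap were not counted. Genes on the other strand overlap Ccl2 (Gm17268), Ccl6 (E230016K23Rik), Cxcl10 (Art3) and Cxcl16 (Zmynd15), and the sources used here do not say if the quantification was stranded. Few 31-base words of the annotated transcripts were shared with another gene, from none for Ccl2, Ccl3, Ccl4, Cxcl10 and Cxcl16 to 7.59% for Cxcl2, which shares them with Cxcl3.

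In WT c-kit- cells, Ccl3 was the most abundant ligand, followed by Ccl9, Ccl6 and Ccl4. Their means were 695 ± 282 TPM for Ccl3, 283 ± 6.40 TPM for Ccl9, 179 ± 24.2 TPM for Ccl6 and 103 ± 55.03 TPM for Ccl4 (SD, n = 3). The ranges of neighbours in this order did not overlap. The other 6 ligands lay far lower, from 8.15 ± 6.51 TPM for Cxcl2 (SD, n = 3) down to 0.46 ± 0.19 TPM for Cxcl9 (SD, n = 3). Among these, Cxcl2, Ccl2, Ccl5, Cxcl16 and Cxcl10 overlapped from each to the next, and only Cxcl10 and Cxcl9 did not. In WT c-kit+ cells the order began with Ccl3, Ccl9, Ccl4 and Ccl6. In the libraries labelled IRF7-/- c-kit+ it began with Ccl9, at 180.3 ± 3.69 TPM (SD, n = 3), above Ccl3 at 19.3 ± 5.08 TPM (SD, n = 3).

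The ligand output differed in size and in make-up. The 10 ligands together summed to 904, 1373 and 1565 TPM in WT c-kit-, to 262, 438 and 201 TPM in WT c-kit+, and to 214, 213 and 219 TPM in the labelled libraries. The sum was thus lower in every c-kit+ library than in any c-kit- library, while the c-kit+ groups overlapped each other. Ccl3 made up 50.8% to 62.1% of the sum in WT c-kit+ and 7.08% to 11.4% in the labelled libraries. Ccl9 made up 22.9% to 32.7% of it in WT c-kit+ and 80.6% to 85.8% in the labelled libraries. These shares compare genes within a library and do not depend on how the library was scaled.

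**Figure D2:**
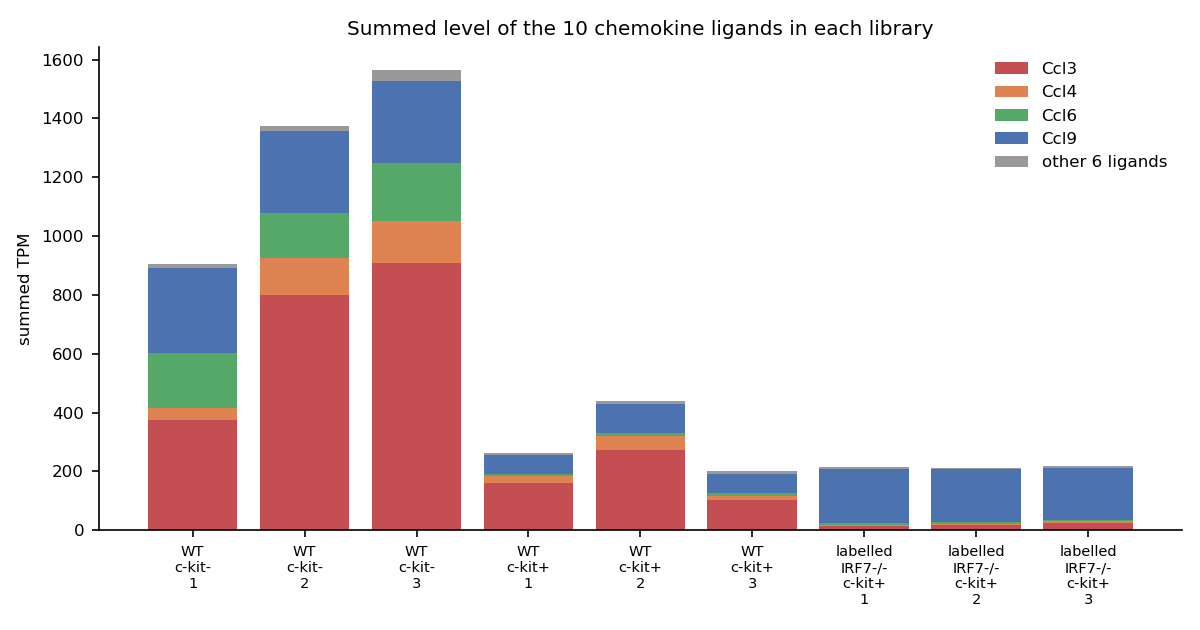
Summed level of the 10 ligands in each of the 9 libraries, in TPM, as stacked bars. Ccl3 fills 50.8% to 62.1% of the bar in WT c-kit+ libraries, and Ccl9 fills 80.6% to 85.8% in the libraries labelled IRF7-/- c-kit+, at sums that overlap.

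**Figure D3:**
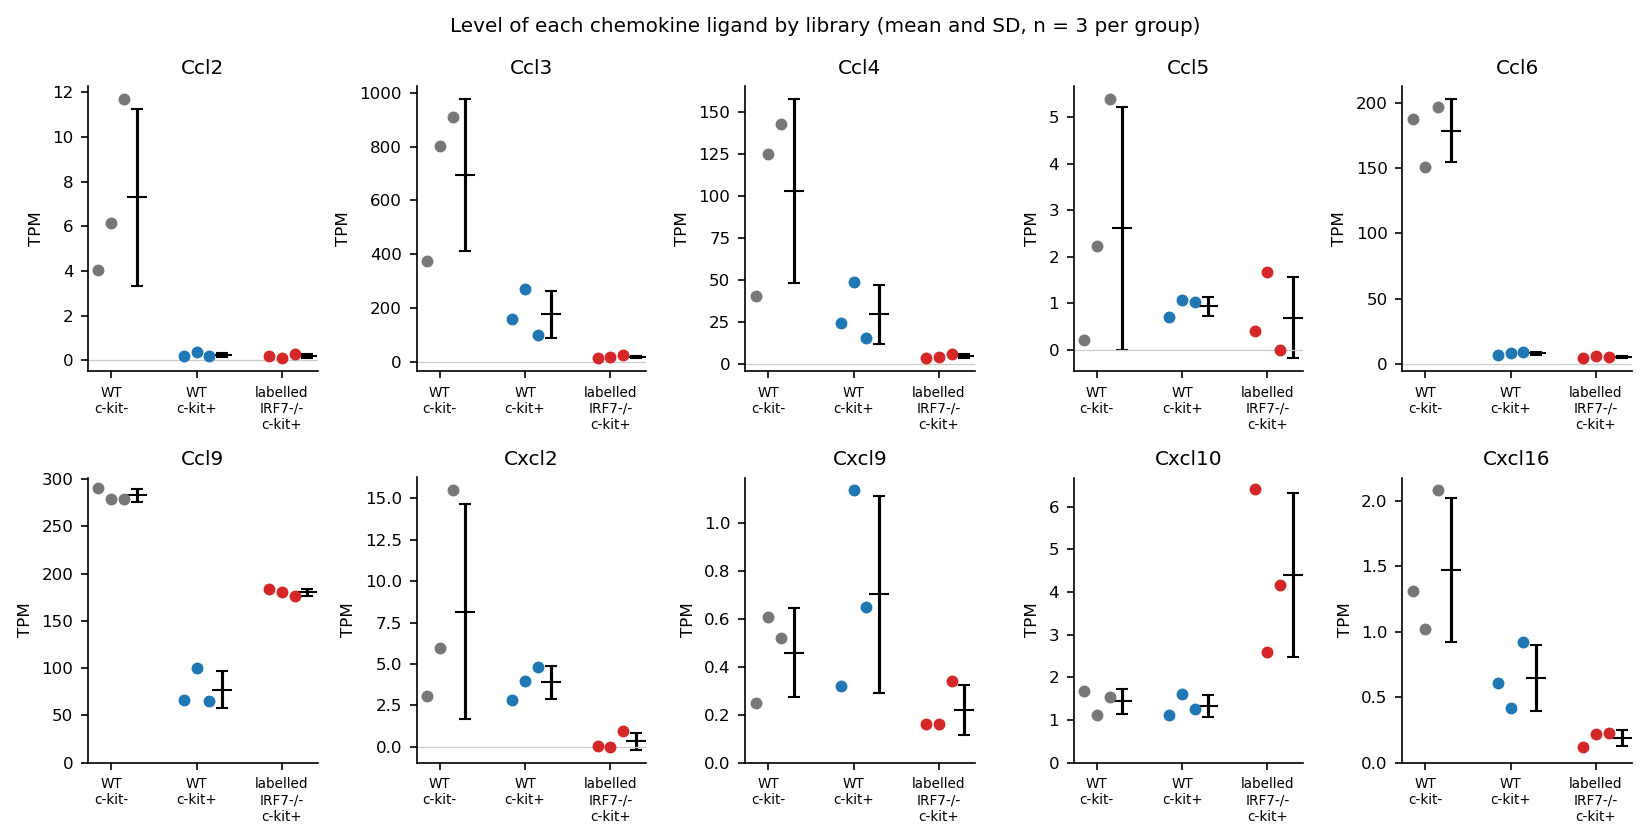
Level of each ligand in TPM, with a point for each library and the mean with its SD (n = 3) beside each group. The vertical axes differ between panels, each shows 0, and Ccl9 is the only panel in which the labelled libraries lie between the other groups.

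Genes were tested with limma on log2(TPM + 1) when they reached 1 TPM in 3 or more of the 6 libraries compared. A gene was called higher or lower when its log2 fold change was at least 1 in size and its Benjamini-Hochberg adjusted p over all genes tested was under 0.05. Fold changes on this scale understate the change of low genes. For a single gene, an exact two-sided permutation test of 3 libraries against 3 cannot go below p = 0.1, and it gave 0.1 for each ligand whose groups did not overlap. The 3 comparisons share libraries, so they are not independent of each other.

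Between WT c-kit+ and WT c-kit- cells, 4 of the 10 ligands were called lower in c-kit+ cells and none higher. They were Ccl2, Ccl3, Ccl6 and Ccl9. Among all 13261 genes tested, 9.61% were called lower and 4.83% higher. Of the 10 ligands, 9 were tested, and Ccl2 and Cxcl16 passed the filter only through the c-kit- libraries, so the count is not given as a share of those tested. Over all genes tested the log2 fold changes had a median of −0.08, and 5519 genes had an adjusted p under 0.05 at any fold change.

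Ccl2, the monocyte attractant, was 4.06, 6.14 and 11.7 TPM in WT c-kit- and 0.20, 0.37 and 0.20 TPM in WT c-kit+. All c-kit+ libraries were near 0, and the log2 fold change was −2.62 (SE 0.33, limma adjusted p = 0.000952). Ccl3, which draws monocytes, macrophages and T cells, was 375, 801 and 908 TPM in WT c-kit- and 159, 272 and 102 TPM in WT c-kit+. The groups did not overlap, and Ccl3 fell with a log2 fold change of −1.98 (SE 0.44, limma adjusted p = 0.0120). Ccl4, its neighbour and close relative, was 40.3, 125 and 143 TPM against 24.2, 48.8 and 15.2 TPM. Library 1 of WT c-kit- lay below library 2 of WT c-kit+, and the log2 fold change of −1.74 (SE 0.58, limma adjusted p = 0.0505) missed the threshold. Without WT c-kit- library 1 it was −2.31 (SE 0.45, limma adjusted p = 0.0127). Ccl5, a T cell attractant, was 0.21, 2.23 and 5.39 TPM against 0.70, 1.06 and 1.03 TPM. The groups overlapped, with a log2 fold change of −0.60 (SE 0.56, limma adjusted p = 0.430). The value rested on single libraries, since Ccl5 passed both thresholds without WT c-kit- library 1, at −1.24 (SE 0.32, limma adjusted p = 0.0299), and was at −0.04 (SE 0.42, limma adjusted p = 0.953) without WT c-kit- library 3.

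WT c-kit- library 1 was the lowest of its group in Ccl2, Ccl3, Ccl4, Ccl5, Cxcl2 and Cxcl9. It was the highest of its group in Ccl9 and Cxcl10. Library 3 was the highest in Ccl2, Ccl3, Ccl4, Ccl5, Ccl6, Cxcl2 and Cxcl16, and it is the library whose neutrophil markers summed to 30284 TPM. The part of these markers in the ligand levels was not tested. Without library 3 the same number of ligands, 4, was called.

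The myeloid ligands Ccl6 and Ccl9 were both lower in every c-kit+ library than in any c-kit- library. Ccl6 was 188, 151 and 197 TPM in WT c-kit- and 6.87, 8.31 and 9.15 TPM in WT c-kit+, a mean 22.03 times as high in c-kit- cells. Its log2 fold change of −4.30 (SE 0.13, limma adjusted p = 8.94e-06) was the furthest from 0 among the ligands in this comparison. Ccl9 was 290.2, 279 and 279 TPM against 66.1, 100.3 and 65.8 TPM. It fell by a log2 fold change of −1.88 (SE 0.16, limma adjusted p = 0.000189), less than Ccl6 did. The ratio of Ccl9 to Ccl6 within a library was 1.42 to 1.84 in WT c-kit- and 7.19 to 12.1 in WT c-kit+, with no overlap (exact permutation p = 0.1, adjusted p = 0.129 over 9 ratio comparisons).

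The CXC ligands were low in both WT groups. Cxcl2, the neutrophil attractant, was 3.04, 5.93 and 15.5 TPM in WT c-kit- and 2.83, 3.97 and 4.83 TPM in WT c-kit+. The groups overlapped, and the log2 fold change was −0.69 (SE 0.49, limma adjusted p = 0.308). It was −1.15 (limma adjusted p = 0.0732) without WT c-kit- library 1 and −0.14 (limma adjusted p = 0.745) without WT c-kit- library 3. Cxcl10 was 1.68, 1.11 and 1.53 TPM against 1.12, 1.61 and 1.25 TPM. Its log2 fold change was −0.07 with a 95% confidence interval from −0.46 to 0.33, and its sign turned with the 10 most abundant genes of each library left out and without WT c-kit- library 1. Cxcl9 stayed between 0.25 and 1.14 TPM in the 6 libraries and was not tested. Cxcl16 was 1.31, 1.02 and 2.08 TPM against 0.61, 0.42 and 0.92 TPM. Its groups did not overlap, with a log2 fold change of −0.57 (SE 0.22, limma adjusted p = 0.0749).

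**Figure D4:**
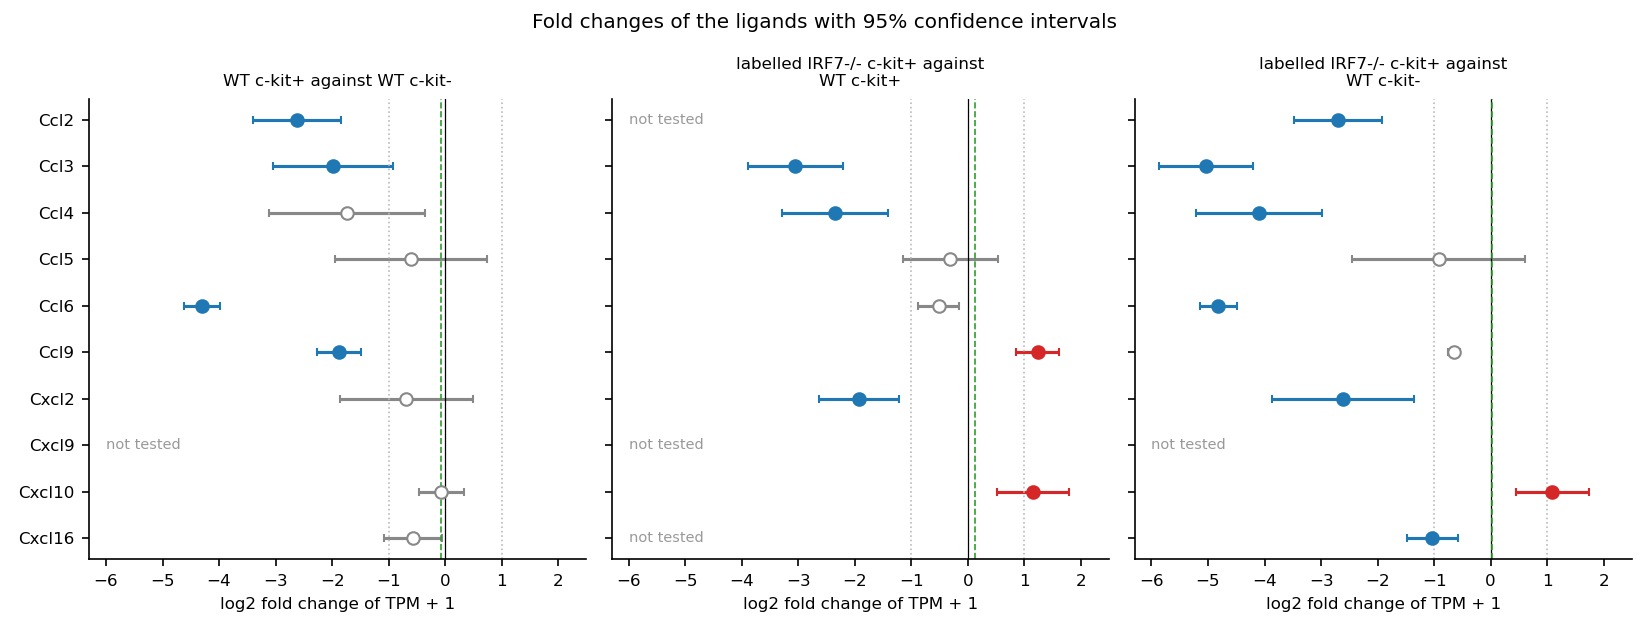
Log2 fold changes of TPM + 1 for the ligands in the 3 comparisons, with 95% confidence intervals from limma. Filled points passed both thresholds, blue for lower and red for higher, open points did not, dotted lines stand at −1 and 1, and the dashed green line is the median of all genes tested. Ccl9 lies at −1.88, 1.24 and −0.65 from the left panel to the right.

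Between the libraries labelled IRF7-/- c-kit+ and WT c-kit+, the ligands moved in both directions. Ccl3, Ccl4 and Cxcl2 were lower in the labelled libraries, and Ccl9 and Cxcl10 were higher. Thus 3 of the 10 ligands were called lower, where 5.39% of all 13238 genes tested were, and 2 were called higher, where 6.3% of all genes were. An adjusted p under 0.05, at any fold change, was reached by 6357 of all genes tested. Of the 10 ligands, 7 were tested, and Cxcl2 passed the filter only through WT c-kit+. Over all genes tested the log2 fold changes had a median of 0.12, and it was −0.02 when the 10 most abundant genes of each library were left out. The balance of all genes turned with the scaling, from 834 higher and 714 lower as reported to 727 and 870 with those genes left out, 723 and 784 with quantile normalization, and 712 and 813 without the neutrophil marker genes.

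Ccl3 was 15.2, 17.8 and 25.0 TPM in the labelled libraries, against 159, 272 and 102 TPM in WT c-kit+. The mean in WT c-kit+ was 9.19 times as high, with a log2 fold change of −3.05 (SE 0.35, limma adjusted p = 0.000882), which is −3.17 when the median of all genes is set to 0. Ccl4 was 3.53, 3.96 and 5.73 TPM against 24.2, 48.8 and 15.2 TPM. It fell too, with a log2 fold change of −2.36 (SE 0.39, limma adjusted p = 0.00344). The ratio of Ccl3 to Ccl4 within a library was 4.30 to 4.50 in the labelled libraries and 5.57 to 6.73 in WT c-kit+, with no overlap (exact permutation p = 0.1, adjusted p = 0.129). Across all 9 libraries this ratio ran from 4.30 to 9.30, while Ccl3 itself ran from 15.2 to 908 TPM. Ccl5 was 0.39, 1.67 and 0 TPM against 0.70, 1.06 and 1.03 TPM, and the groups overlapped (log2 fold change −0.31, SE 0.35, limma adjusted p = 0.498). Ccl2 was 0.10 to 0.29 TPM in the labelled libraries and 0.20 to 0.37 TPM in WT c-kit+, below the filter.

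Ccl9 went the other way from Ccl3. It was 184, 180.5 and 177 TPM in the labelled libraries and 66.1, 100.3 and 65.8 TPM in WT c-kit+, so each labelled library lay above each WT library. The log2 fold change was 1.24 (SE 0.16, limma adjusted p = 0.00133), which is 1.12 when the median of all genes is set to 0. Macrophage markers (6 genes) also summed to more in the labelled libraries (56.2 to 79.4 TPM) than in WT c-kit+ (30.7 to 50.9 TPM), with 65.6 to 99.96 TPM in WT c-kit-. Most of that sum was Adgre1. C1qa, C1qb and C1qc, which stayed below 5 TPM in all 9 libraries, went the other way, with log2 fold changes of −0.66, −0.65 and −0.87 in the labelled libraries against WT c-kit+, and Mertk and Cd5l stayed below 1 TPM. The part of these markers in the level of Ccl9 was not tested. Ccl6, beside it on the chromosome, was 4.40, 5.99 and 5.70 TPM against 6.87, 8.31 and 9.15 TPM. Its groups did not overlap either, but in the opposite direction and with a log2 fold change of −0.52 (SE 0.15, limma adjusted p = 0.0280), under the fold threshold. The ratio of Ccl9 to Ccl6 was 30.1 to 41.8 in the labelled libraries, above the 7.19 to 12.1 of WT c-kit+ (exact permutation p = 0.1, adjusted p = 0.129).

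**Figure D5:**
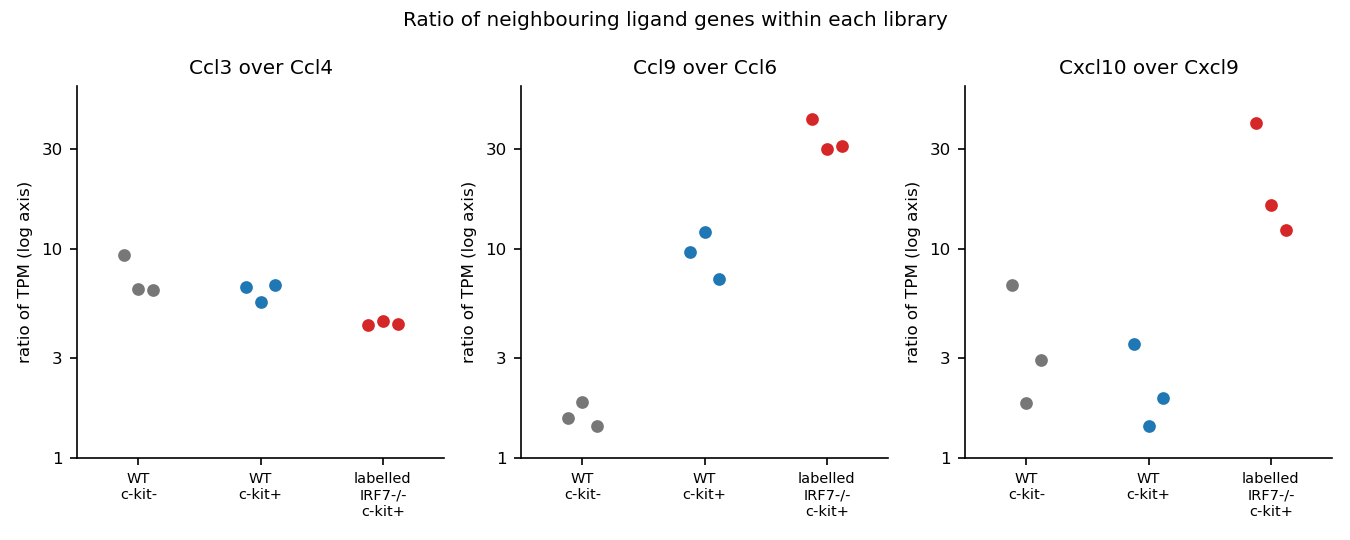
Ratio of TPM between neighbouring ligand genes within each library, on log axes, with a point per library. Ccl3 over Ccl4 stays between 4.30 and 9.30 in all 9 libraries, and Ccl9 over Ccl6 runs from 1.42 to 41.8 with no overlap between the 3 groups.

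Cxcl10 was 6.42, 2.59 and 4.17 TPM in the labelled libraries and 1.12, 1.61 and 1.25 TPM in WT c-kit+. All 3 labelled libraries were above the WT libraries, and the log2 fold change was 1.16 (SE 0.27, limma adjusted p = 0.0120), which is 1.04 when the median of all genes is set to 0. Labelled library 1 was the highest, as it was for Irf7 (12.8 TPM) and Irf9 (79.7 TPM against 36.0 and 42.2 TPM in the other labelled libraries), genes of the interferon response. Without that library the log2 fold change of Cxcl10 was 0.89 (SE 0.22, limma adjusted p = 0.0253), under the fold threshold. Cxcl9, another ligand of Cxcr3, was 0.16, 0.16 and 0.34 TPM in the labelled libraries against 0.32, 1.14 and 0.65 TPM, and was below the filter. The ratio of Cxcl10 to Cxcl9 was 12.3 to 40.1 in the labelled libraries and 1.41 to 3.50 in WT c-kit+ (exact permutation p = 0.1, adjusted p = 0.129), with Cxcl9 at levels where such a ratio is coarse.

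Cxcl2 was 0.06, 0 and 0.93 TPM in the labelled libraries and 2.83, 3.97 and 4.83 TPM in WT c-kit+. Every labelled library was below 1 TPM, and the log2 fold change was −1.92 (SE 0.30, limma adjusted p = 0.00253). Its size depends on the pseudocount, and with 0.1 in place of 1 it was −3.93 (SE 0.86). Its receptor Cxcr2 was 0.68, 0.97 and 0.41 TPM in the labelled libraries against 8.44, 5.48 and 7.22 TPM (log2 fold change −2.25, SE 0.20, limma adjusted p = 0.000308). Cxcr2, like Cxcl2, passed the filter only through WT c-kit+. All 7 genes listed as mature neutrophil markers were called lower in the labelled libraries too. Which cells held their RNA is not known, and their part in the level of Cxcl2 was not tested. With these marker genes left out and each library rescaled, the same number of ligands was called, with Cxcl2 at −2.03 (SE 0.30, limma adjusted p = 0.00227) and Ccl3 at −3.18 (SE 0.34, limma adjusted p = 0.000780). This rescaling changes all other genes of a library by the same factor. It therefore checks the scaling only, and it cannot remove ligand RNA of cells that carry the markers. Cxcl16 was 0.12, 0.22 and 0.23 TPM against 0.61, 0.42 and 0.92 TPM, with no overlap, and was below the filter. Tested without a filter, its log2 fold change was −0.46 (SE 0.12, limma adjusted p = 0.0439).

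Between the libraries labelled IRF7-/- c-kit+ and WT c-kit-, which differ in the label of the donor and in surface c-kit together, 6 ligands were called lower and 1 higher. Among all 13510 genes tested, 11.9% were called lower and 8.4% higher. The lower ligands were Ccl2, Ccl3, Ccl4, Ccl6, Cxcl2 and Cxcl16, and the higher one was Cxcl10. Of the 10 ligands, 9 were tested, and Ccl2, Cxcl2 and Cxcl16 passed the filter only through WT c-kit-. Over all genes tested the log2 fold changes had a median of 0.03.

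Ccl3 had the lowest log2 fold change of the ligands here, −5.03 (SE 0.35, limma adjusted p = 4.98e-05). Its mean was 36.0 times as high in WT c-kit-. Ccl6 followed with −4.82 (SE 0.14) and Ccl4 with −4.09 (SE 0.47). Ccl2 fell by 2.70 on the log2 scale (SE 0.33), reaching 0.10 to 0.29 TPM in the labelled libraries. Cxcl2 gave −2.61 (SE 0.53, limma adjusted p = 0.00505), and without WT c-kit- library 3, the one with the highest Cxcl2 and neutrophil markers, −2.06 (SE 0.38, limma adjusted p = 0.00646).

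Ccl9 was below WT c-kit- in all 3 labelled libraries. Its log2 fold change of −0.65 had a 95% confidence interval from −0.76 to −0.54 (limma adjusted p = 5.19e-05), so it differed beyond replicate spread but by less than the fold threshold. Of all 13510 genes tested in this comparison, 8023 had an adjusted p under 0.05. Ccl9 stood at 283, 77.4 and 180.3 TPM on average in WT c-kit-, WT c-kit+ and the labelled libraries. Cxcl10 was higher by a log2 fold change of 1.09 (SE 0.27, limma adjusted p = 0.0123). That call was lost without labelled library 1 (0.83, limma adjusted p = 0.0264) and without WT c-kit- library 2 (0.99, limma adjusted p = 0.0426). Cxcl16 was near the fold threshold at −1.03 (SE 0.19, limma adjusted p = 0.00347). It fell short of it without WT c-kit- library 3 (−0.86, limma adjusted p = 0.00676) or labelled library 1 (−0.99, limma adjusted p = 0.0152). Ccl5 differed by −0.92 (SE 0.64, limma adjusted p = 0.256). Without WT c-kit- library 1 it was −1.55 (SE 0.49, limma adjusted p = 0.0412), past both thresholds, and without WT c-kit- library 3 it was −0.35 (SE 0.57, limma adjusted p = 0.629).

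The other chemokine ligands of the mouse, 28 genes listed beside these 10, were mostly low. In every library 23 of them were below 1 TPM, Cxcl3 among these, and their sum was 18.8 to 30.1 TPM in the 9 libraries, against 201 to 1565 TPM for the 10 ligands. Only 2 or 3 of the 28 passed the filter in a comparison, and none was called in either direction.

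Among receptors for these ligands, Ccr1, the receptor of Ccl3, Ccl5, Ccl6 and Ccl9, was 69.8, 67.6 and 68.9 TPM in WT c-kit-. It was 6.63, 5.79 and 8.40 TPM in WT c-kit+, while the labelled libraries had 28.7, 32.98 and 32.8 TPM. The labelled libraries lay between the other groups, as they did for Ccl9 and also for Ccr2 and Irf7. The log2 fold change of Ccr1 was −3.15 (SE 0.12, limma adjusted p = 1.48e-05) in WT c-kit+ against WT c-kit- and 2.04 (SE 0.13, limma adjusted p = 0.000114) in the labelled libraries against WT c-kit+. Ccr2 was 224 to 359 TPM in WT c-kit-, 14.5 to 24.3 TPM in WT c-kit+ and 25.6 to 30.9 TPM in the labelled libraries. Ccr2 was called lower in both c-kit+ groups than in WT c-kit-. Its log2 fold change between the c-kit+ groups was 0.61 (SE 0.18, limma adjusted p = 0.0298), under the fold threshold. Dpp4, a protease that trims the first residues of several chemokines, was 33.3 to 41.0 TPM in WT c-kit- and 4.10 to 5.40 TPM in WT c-kit+. It was 0.26 to 0.68 TPM in the labelled libraries, and was called lower in each comparison. Where the labelled libraries were compared, Dpp4 passed the filter only through the WT group. Adam10 and Adam17, which shed Cxcl16, were called in none.

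Among transcription factors of the interferon and NF-kappaB pathways, Irf8 was called lower in the labelled libraries than in WT c-kit+ (log2 fold change −1.59, SE 0.32, limma adjusted p = 0.00700). In WT c-kit+ against WT c-kit-, Irf7, Irf8, Irf9 and Nfkb1 were lower. Nfkb1 was 320 to 386 TPM in WT c-kit- and 126 to 165 TPM in the other 6 libraries. Irf7, Irf8 and Nfkb1 were lower in the labelled libraries than in WT c-kit-. Whether any of these moved the ligands was not tested.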

How the data were processed

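RNA from sorted bone marrow leukemia cells was measured in 9 libraries, 3 per group, made with the Illumina TruSeq RNA kit by the labels. The paper calls the assay a microarray. The aligner, the annotation and the genome build used for the table are not given in the sources used here. The table deposited by the authors holds 1 value per gene and library. Its header names no unit, and the deposited values are read as TPM because every library has nearly the same fixed total. TPM keeps no depth, so no counting error or interval for it can be given, and the precision rests on 3 libraries per group. The labels do not say whether replicates are separate mice, so p-values measure the spread between these libraries, which may be technical. No 2 libraries were identical.

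Groups followed the sample labels. Each comparison was fitted on its own 6 libraries with limma 3.58.1 in R 4.3.3 (lmFit, eBayes with trend) on log2(TPM + 1), for genes that reached 1 TPM in 3 or more libraries, with p adjusted by Benjamini-Hochberg over all genes tested. The fits were tested on simulated data. Exact permutation tests used scipy 1.17.1. Of 55536 gene identifiers, 55450 matched GENCODE M21. All 10 ligands are named, and of the other lists only genes past both thresholds or needed to check labels, cells or replicates are given with values. The members, lists and motifs were chosen with earlier results of these data known. Alternatives were the filter, the pseudocount, the scaling, a joint fit of all 9 libraries, a replicate block and leaving out each library. Deviations of same-numbered libraries of different groups had a Pearson's r over 0.1 in 1 of 9 pairs, and r ran from −0.07 to 0.24. All of these r values were positive except that of library 1 in WT c-kit- and WT c-kit+ (−0.07). For libraries of different numbers r ran from −0.18 to 0.14. This check cannot exclude pairing, since a shared source need not give an r over 0.1. The reported fits left the numbers unpaired, and fits with the number as a block are given below. Some genes of the receptor and transcription factor lists are not reported here.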

Additional observations from a re-analysis of the deposited data

How the results depend on the processing

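Of 337 refitted fold changes of the ligands, 322 kept their direction and stayed called or not called, though some of these crossed 1 of the 2 thresholds. With a pseudocount of 0.1 the log2 fold changes against WT c-kit- in the libraries labelled IRF7-/- c-kit+ were −4.58 for Ccl2, −4.71 for Cxcl2 and −2.40 for Cxcl16. With a filter of 5 TPM fewer ligands were tested, and 3 were past both thresholds in the libraries labelled IRF7-/- c-kit+ against WT c-kit+ (5 in the reported fit) and 3 against WT c-kit- (7). All genes past both thresholds in the former comparison then numbered 1015 (1548). Leaving out each library gave 4 to 5 ligands against WT c-kit+, 5 to 8 against WT c-kit-, and 4 to 6 in WT c-kit+ against WT c-kit-. The fold change of Ccl5 in the labelled libraries against WT c-kit+ ran from −0.71 to 0.0027 on the log2 scale when libraries were left out, with the sign turned without labelled library 3, where Ccl5 is listed at 0. Cxcl10 in WT c-kit+ against WT c-kit- turned sign to 0.0017 with the 10 most abundant genes left out and ran from −0.17 to 0.0045 when libraries were left out. Ccl4 in the same comparison passed with the filter of 5 TPM (limma adjusted p = 0.0449), with all 9 libraries in 1 fit (0.0235) and without WT c-kit+ library 2 (0.0316). Over its alternatives its adjusted p ran from 0.0127 to 0.140. With the replicate number as a block, Ccl4 passed (limma adjusted p = 0.0458), 5, 5 and 7 ligands and 1549, 1950 and 2749 genes were called in the comparison between c-kit+ groups, in WT c-kit+ against WT c-kit- and in the labelled libraries against WT c-kit-, and the call of no other ligand changed. The labels do not say what a shared number means, and same-numbered libraries had correlations of deviations from −0.07 to 0.24. Pairing was thus neither shown nor excluded. The rescaling without neutrophil marker genes was chosen after seeing the data. The causes of these changes were not tested, and without depth no limit of detection can be set for ligands listed at 0.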
